A study of Drosophila melanogaster with 18 samples.

Results

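Transcripts of 8 genes that encode catalytic subunits of PPP-family protein phosphatases were followed in Drosophila melanogaster DL1 cells, a haemocyte-like line, after RNA interference against subunits of Integrator and of protein phosphatase 2A (PP2A). The genes were taken by their FlyBase identifiers from the 17753 gene entries of the deposited table. They are Pp4-19C (PP4), PpV (PP6), flw, Pp1alpha-96A, Pp1-87B and Pp1-13C (PP1), PpD3 (PP5) and CanA-14F (calcineurin). The study has 18 libraries of ribosomal RNA-depleted total RNA in 6 groups of 3, each group with 1 library in each of the biological replicate sets A, B and C. The genotype is given as wild type for cells that received a mock treatment and for cells that received control double-stranded RNA (dsRNA) against B-gal. The other groups are given as depletions and received dsRNA against IntS4 or IntS6, subunits of Integrator, against mts, the PP2A catalytic subunit, or against Pp2A-29B, the PP2A scaffold. Cells were bathed in 2 µg of dsRNA and grown for 3 days.

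PPP enzymes remove phosphate from serine and threonine, and most of them owe their targets to partner subunits rather than to the catalytic subunit itself. PP2A, PP4 and PP6 form a closely related branch and share assembly factors, PP1 is encoded by several near-identical genes and binds a large number of targeting proteins, PP5 carries its own repeats that bind Hsp90, and calcineurin is switched on by calcium and calmodulin. In flies, PP4 is known for its part at centrosomes and kinetochores, and the PP1 isoform encoded by flw is known for acting on non-muscle myosin. The mts product works in PP2A holoenzymes and also joins Integrator.

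The libraries held between 13445318 and 19298644 counts, of which 65.1 to 74.8% fell on ribosomal RNA, so that 3545828 to 6325688 counts per library came from other genes. Levels are given in CPM, the count scaled to the library total after trimmed-mean scaling, ribosomal RNA included. The 3 mts libraries had the highest ribosomal shares (73.0 to 74.8%, all others at most 72.2%). They also had the lowest trimmed-mean factors (0.841 to 0.904, all others at least 0.917). These differences cannot be told apart from the mts dsRNA itself. The targeted transcripts were at 42.6% of the B-gal level for mts and at 29.2% for Pp2A-29B in their own dsRNA groups. Counts of IntS4 and IntS6 were higher, not lower, in the libraries labelled with their own dsRNA. IntS4 counts averaged 98.8 ± 111 CPM (SD, n = 3) in the libraries labelled IntS4 against 12.1 ± 0.191 CPM with B-gal dsRNA, and IntS6 counts averaged 83.9 ± 57.6 CPM in the libraries labelled IntS6 against 29.8 ± 3.26 CPM. In the other depletion groups IntS4 was at 12.7 (labelled IntS6), 11.8 (mts) and 10.2 CPM (Pp2A-29B), so its rise was seen only under its own label. IntS6 was at 47.9 (labelled IntS4), 41.8 (mts) and 42.8 CPM (Pp2A-29B), and the libraries labelled IntS6 overlapped those labelled IntS4. As the SDs show, the rises were very uneven between libraries, and their source was not tested. No fall of the target was thus seen under either label, and the directions given below for these libraries rest on the labels. The 10 haemocyte markers summed to 281 to 308 CPM with B-gal dsRNA, 934 to 1340 CPM in the libraries labelled IntS4, 933 to 1224 CPM in those labelled IntS6, 515 to 574 CPM with mts dsRNA and 450 to 499 CPM with Pp2A-29B dsRNA. Hml, a plasmatocyte gene, made up most of the rise in the libraries labelled IntS4 and IntS6, with 2.86 CPM with B-gal dsRNA and 609, 601, 115.2 and 63.5 CPM in the order IntS4, IntS6, mts, Pp2A-29B. Of the 10 markers 9, 9, 4 and 6 were called higher in that order and none was called lower. Over all genes tested 26.9, 26.3, 26.6 and 21.0% were called higher and 20.2, 19.4, 24.9 and 17.8% lower. The haemocyte factors srp and ush were at 122 and 65.9 CPM with B-gal dsRNA. In the order IntS4, IntS6, mts, Pp2A-29B, srp was at 177, 153, 119 and 124 CPM. In that order ush was at 96.6, 98.4, 54.3 and 57.3 CPM. The ovarian somatic markers tj and fs(1)Yb together moved the other way, from 190 to 219 CPM with B-gal dsRNA to at most 124, 152, 62.0 and 88.3 CPM in the same order. Neuron markers summed to 13.0 to 19.9 CPM with B-gal dsRNA, 19.4 to 22.2 CPM under the IntS4 label and 25.8 to 29.0 CPM under the IntS6 label. Muscle markers summed to 0.341 to 0.501, 2.69 to 4.67 and 1.68 to 2.40 CPM in these 3 groups, so higher sums were not confined to haemocyte markers. Germline and fat body markers summed to at most 1.53 and 0.324 CPM in any library. The part of these marker shifts in the results below was not tested. Transcript levels in bulk RNA cannot tell fewer cells of a type from less RNA per cell.

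All 8 genes are annotated as protein-coding in BDGP6. On chromosome X lie Pp4-19C (FBgn0023177, X:20421087-20424002, minus strand), PpV (FBgn0003139, X:6371065-6372915, minus), flw (FBgn0000711, X:10385960-10409817, plus), Pp1-13C (FBgn0003132, X:15359101-15361061, minus) and CanA-14F (FBgn0267912, X:16560684-16587172, minus). On 3R lie Pp1alpha-96A (FBgn0003134, 3R:24518270-24522331, plus), Pp1-87B (FBgn0004103, 3R:12423621-12425917, minus) and PpD3 (FBgn0005777, 3R:9747875-9751094, plus). Pp1-13C lies within the span of acj6 on the same strand, with no shared exon base. CanA-14F ends 667 bp from Pp2B-14D, the other calcineurin A gene detected, on the same strand. PpD3 shares 7 exon bases with Tti1 and Pp1alpha-96A shares 396 with asRNA:CR44021, both on the opposite strand. Whether the authors' counting kept the strands apart is not stated, so counts of these pairs are uncertain. The antisense RNA had a mean of 0 CPM with B-gal dsRNA. Fractional counts, which arise where a read is divided among places, were seen for Pp1-87B in 10 libraries and for PpV and CanA-14F in 7 each. They were also seen for flw in 3, for PpD3 in 2 and for Pp1alpha-96A in 1. The fraction left in a count does not show how many reads were divided. Pp4-19C had whole counts in every library.

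In control cells the PP1 gene Pp1-87B was the most abundant of the 8 per unit length. With B-gal dsRNA its level was 69.7 ± 6.34 CPM per kilobase of exon (SD, n = 3). Pp1alpha-96A followed with 11.9 ± 0.627 CPM per kilobase. PpD3, Pp4-19C and PpV came next at 8.77 ± 0.608, 8.61 ± 0.953 and 8.46 ± 0.481 CPM per kilobase, with overlapping ranges and so no order among them. CanA-14F (4.83 ± 0.596) and flw (3.44 ± 0.0905) were lower on the same scale, and the ranges of their libraries did not overlap. Pp1-13C had 2 counts in all 18 libraries, 1 in Mock set C and 1 in set C of the libraries labelled IntS4. It was at 0 in all 3 B-gal libraries and did not pass the filter on low counts, which left 7 of the 8 genes to test. With mts dsRNA Pp4-19C was at 1.67 ± 0.348 CPM per kilobase, below the 6 other tested genes and with no library in the range of any of them. PpD3 was then at 12.8 ± 0.940 CPM per kilobase, above all but Pp1-87B.

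**Figure D1:**
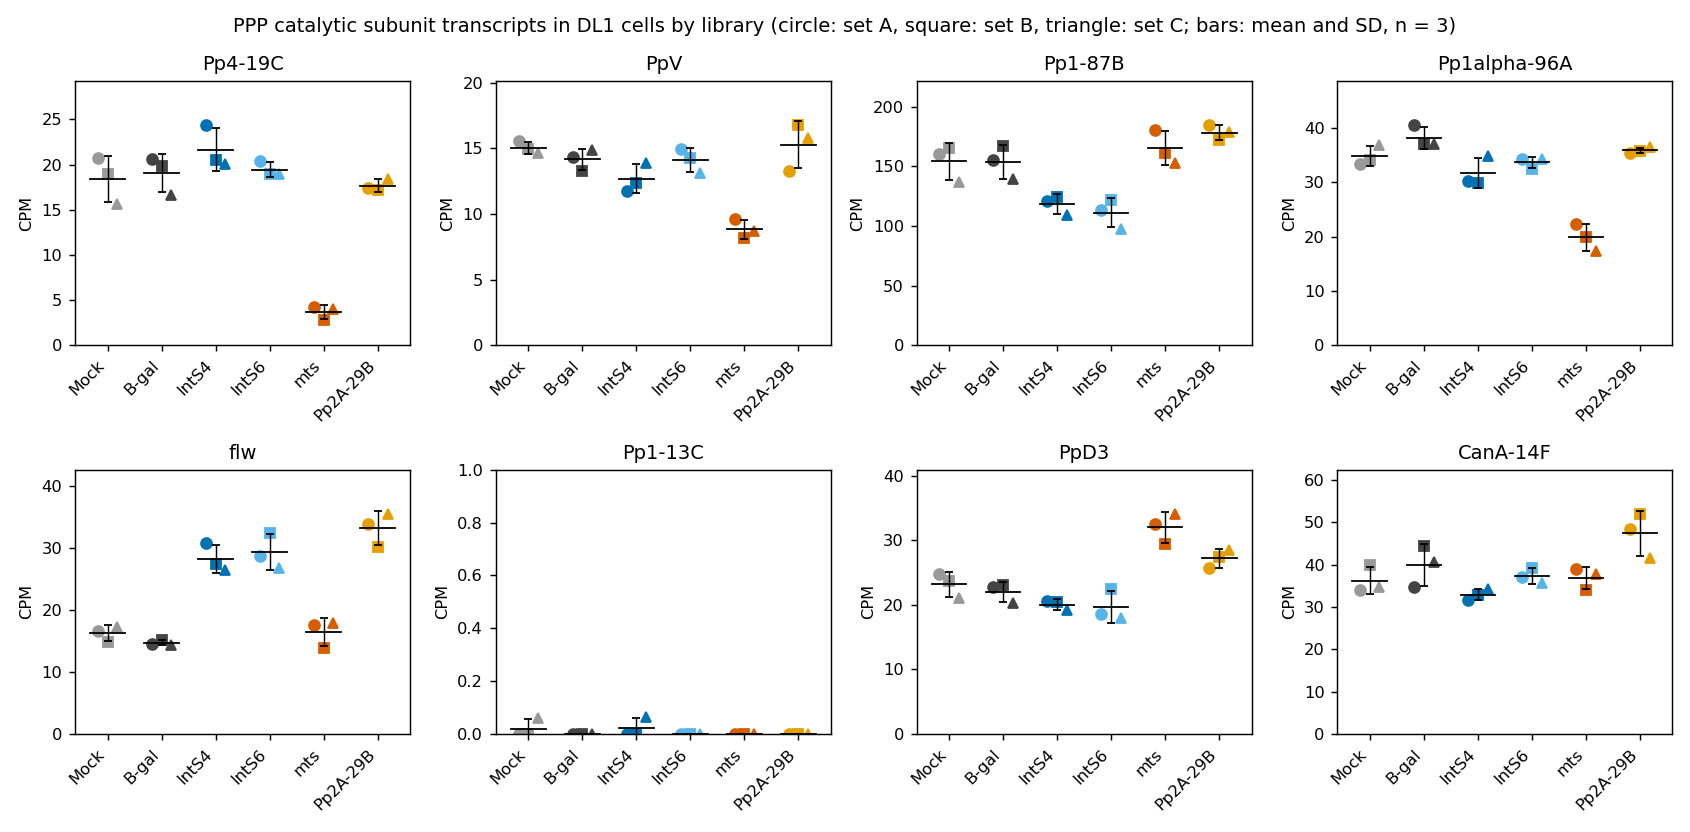
Level of each of the 8 genes in CPM (vertical axes, each with its own scale) in the 18 libraries by group, with symbols for sets A, B and C and bars for the mean and SD of 3 libraries. Pp4-19C lies at 2.82 to 4.24 CPM with mts dsRNA and at 15.6 CPM or above in every other library, flw is raised in 3 of the 4 depletion groups, and Pp1-13C stays at or near 0.

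flw was called in 3 of the 4 depletion groups and Pp1-87B, Pp1alpha-96A and PpD3 in 2 each, while Pp4-19C and PpV were called with mts dsRNA alone and CanA-14F in the libraries labelled IntS4 alone. No gene was called in all 4 groups, and control dsRNA gave no call. Against Mock, B-gal dsRNA gave 0 of 7 genes at an edgeR adjusted p under 0.05, where 0% of the 8704 genes tested were called and 245 had an unadjusted p under 0.05, and DESeq2 also called 0 genes. Against B-gal dsRNA, the libraries labelled IntS4 had 1 of 7 higher and 3 lower, beside 47.0% of all genes called (26.9% higher and 20.2% lower). The libraries labelled IntS6 had 1 higher and 1 lower, beside 45.7% (26.3 and 19.4%). With mts dsRNA 1 gene was higher and 3 were lower, beside 51.4% (26.6 and 24.9%). With Pp2A-29B dsRNA 2 were higher and none was lower, beside 38.8% (21.0 and 17.8%). With 7 genes and backgrounds of this size, the counts are not read as a result about the family. Without single libraries the IntS4 count was as low as 2 (without IntS4 set A or B) and the Pp2A-29B count as low as 1 (without B-gal set C or Pp2A-29B set B). The median log2 fold change of the 7 was -0.16, -0.10, -0.11 and 0.22 in these 4 comparisons, beside -0.01, -0.01, 0.00 and -0.01 over all genes tested. These comparisons share the same 3 B-gal libraries.

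**Figure D2:**
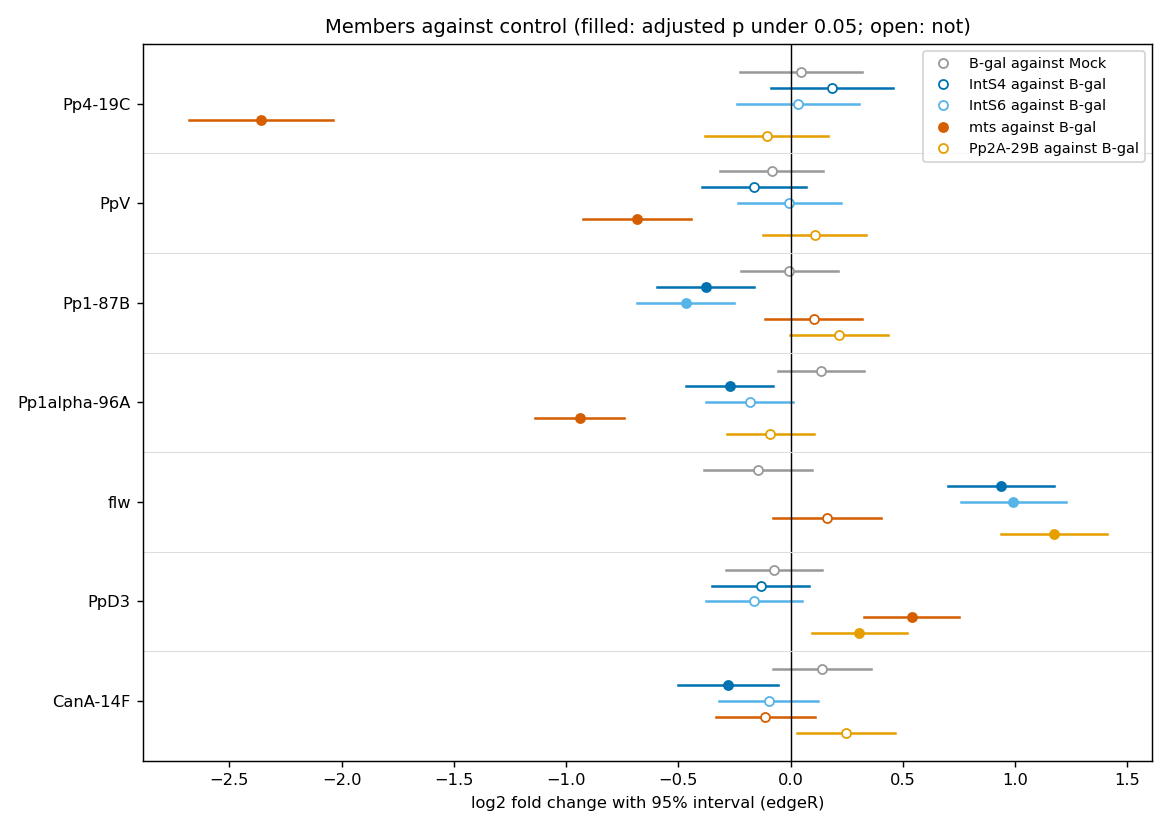
Log2 fold change (horizontal axis) of the 7 tested genes against control, with 95% intervals from edgeR; filled points passed an adjusted p of 0.05. The fall of Pp4-19C with mts dsRNA (-2.36) stands far from its other 4 values, which lie between -0.11 and 0.18.

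Pp4-19C encodes the catalytic subunit of PP4, a close relative of mts. Its levels were 20.6, 19.9 and 16.6 CPM in the B-gal libraries of sets A, B and C and 20.7, 18.9 and 15.6 CPM in the Mock libraries. With mts dsRNA they were 4.24, 2.82 and 4.05 CPM, from 66, 40 and 48 counts where the B-gal libraries had 302, 350 and 299. All 3 mts libraries thus lay below every library of every other group, with a wide gap. The mean with mts dsRNA was 3.71 ± 0.771 CPM (SD, n = 3), 19.5% of the 19.0 ± 2.11 CPM with B-gal dsRNA. The log2 fold change was -2.36 (SE 0.15, edgeR adjusted p = 1.45e-09), which ranked at position 144 from the lowest among 8704 genes. It lay between -2.48 and -2.19 in 12 alternative analyses.

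Pp4-19C was not called with the other dsRNAs. The libraries labelled IntS4 had 24.4, 20.5 and 20.1 CPM and those labelled IntS6 had 20.4, 19.0 and 19.0 CPM. With Pp2A-29B dsRNA, which targets the scaffold that mts needs in PP2A, the values were 17.4, 17.2 and 18.5 CPM. Each of these groups overlapped the B-gal libraries, although set A labelled IntS4 lay above every control library. The log2 fold changes against B-gal were 0.18 (95% interval -0.09 to 0.46), 0.03 (-0.24 to 0.30) and -0.11 (-0.38 to 0.17), none called. The direct comparison of Pp2A-29B with mts dsRNA gave a log2 difference of 2.25 (SE 0.15, edgeR adjusted p = 6.95e-08) for Pp4-19C. Its level with mts dsRNA was also lower than in the libraries labelled IntS4 (-2.54, SE 0.15, edgeR adjusted p = 1.35e-10) and IntS6 (-2.39, SE 0.15, edgeR adjusted p = 4.61e-10).

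With its own dsRNA mts fell by 1.23 on the log2 scale (SE 0.14, edgeR adjusted p = 1.09e-06), where Pp4-19C fell by 2.36. Per 100 counts of mts, Pp4-19C had 12.9 ± 2.72 counts with B-gal dsRNA (SD, n = 3, range 10.1 to 15.6) and 5.83 ± 0.373 with mts dsRNA (range 5.42 to 6.15). For PpV, flw, Pp1-87B, PpD3 and CanA-14F this ratio was higher in every mts library than in every B-gal library, and for Pp1alpha-96A the ranges overlapped. PpD3, for example, went from 14.8 ± 2.43 to 51.7 ± 10.2 counts per 100 counts of mts. These ratios are given as a description, and the difference between the 2 genes was not tested. The mts count in the mts libraries is that of the dsRNA target itself, and such counts rose for IntS4 and IntS6 in their own groups. Whether it measures the endogenous mts transcript alone was not tested, so the falls of mts and Pp4-19C are not ranked. The labels give no dsRNA sequence, and the likeness of the dsRNAs to Pp4-19C or to the other genes was not tested.

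With mts dsRNA the gene next to Pp4-19C went the other way. cactin, which lies 66 bp upstream on the opposite strand and encodes a splicing-related protein, was higher in all 4 depletion groups, with log2 fold changes of 1.34, 1.03, 1.16 and 0.60 in the order IntS4, IntS6, mts, Pp2A-29B and edgeR adjusted p-values from 7.74e-07 to 0.00483. Obp19d, 107 bp downstream, was not tested for want of counts. Of the 3 listed PP4 regulatory subunits 2 were analysed here. flfl (the R3 subunit) fell with every dsRNA, from 137 CPM with B-gal dsRNA to between 82.8 and 86.3 CPM. Its log2 fold changes were -0.72, -0.69, -0.73 and -0.67, with edgeR adjusted p-values between 4.52e-05 and 0.000181. The fall was of like size in all 4 groups, whereas that of the catalytic gene was called with mts dsRNA alone among the comparisons with B-gal. PPP4R2r (the R2 subunit) was not called in any of the 4 comparisons, with log2 values from 0.07 to 0.30. Its log2 value of 0.30 with Pp2A-29B dsRNA (edgeR adjusted p = 0.0573) was called without B-gal set B (0.38, 0.0396), by DESeq2 (0.32, 0.0463), with other scaling factors (0.32, 0.0425), with the replicate block (0.31, 0.0237) and with ribosomal RNA removed (0.34, 0.0325). Its value of 0.26 with mts dsRNA (0.0888) was called without mts set C (0.37, 0.0232) and with ribosomal RNA removed (0.30, 0.0454).

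PpV encodes the catalytic subunit of PP6, the third enzyme of the PP2A-like branch. Its levels were 15.5, 14.9 and 14.6 CPM in Mock, 14.4, 13.3 and 14.9 CPM with B-gal dsRNA and 9.58, 8.19 and 8.70 CPM with mts dsRNA. The mts libraries lay below all others. The log2 fold change was -0.68 (SE 0.11, edgeR adjusted p = 6.86e-05), or 62.2% of the B-gal level. In the remaining groups PpV had 11.8, 12.4 and 13.9 CPM (labelled IntS4), 14.9, 14.2 and 13.1 CPM (labelled IntS6) and 13.3, 16.8 and 15.8 CPM (Pp2A-29B). These overlapped the B-gal libraries, with log2 fold changes of -0.16, -0.01 and 0.11 that were not called. Its regulatory partner fmt, a PP6-binding subunit, gave a parallel pattern: it was called against B-gal with mts dsRNA (-0.50, SE 0.09, edgeR adjusted p = 0.000212) and was higher with Pp2A-29B than with mts dsRNA by 0.54 (SE 0.09, edgeR adjusted p = 0.00169). Without B-gal set A, fmt was also called lower in the libraries labelled IntS4 (-0.25, edgeR adjusted p = 0.0358) and IntS6 (-0.26, 0.0312).

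Of 5 listed factors in the assembly of PP2A-like phosphatases 2 were analysed here. Tap42, which holds the catalytic subunits outside their holoenzymes, was called with Pp2A-29B dsRNA alone of the 4 comparisons (-0.47, SE 0.14, edgeR adjusted p = 0.0122), and this call ended without B-gal set C (-0.33, 0.0861) or Pp2A-29B set A (-0.42, 0.0569). With mts dsRNA its log2 fold change was -0.30 (edgeR adjusted p = 0.0796), which passed when the replicate set was added as a block (0.00952) and without mts set C (-0.43, 0.0275). In the libraries labelled IntS6 its value of -0.24 (edgeR adjusted p = 0.178) also passed with the block (-0.22, 0.0491). Ptpa, an activator of PP2A, was not called in any of the 4 comparisons, and passed with mts dsRNA without mts set C (-0.47, 0.0191).

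The PP1 genes changed in different directions from each other. Pp1-87B, the main PP1 gene of the fly, was lower in the libraries labelled IntS4 and IntS6. It had 160, 166 and 136 CPM in Mock, 155, 167 and 139 CPM with B-gal dsRNA, 121, 125 and 109 CPM in the libraries labelled IntS4, and 114, 122 and 97.6 CPM in those labelled IntS6. All 6 of the latter lay below every control library. The log2 fold changes were -0.38 (SE 0.10, edgeR adjusted p = 0.00556) and -0.47 (SE 0.10, edgeR adjusted p = 0.00109). With mts dsRNA it had 181, 161 and 153 CPM, and with Pp2A-29B dsRNA 184, 172 and 178 CPM. The log2 fold change was 0.10 (95% interval -0.11 to 0.32) for mts, whose libraries overlapped those of B-gal, and 0.22 (0.00 to 0.43, edgeR adjusted p = 0.109) for Pp2A-29B, whose libraries all lay above them.

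Pp1alpha-96A, another alpha-type PP1 gene, was lowered most with mts dsRNA. Its levels were 40.5, 37.1 and 37.0 CPM with B-gal dsRNA and 22.4, 19.9 and 17.3 CPM with mts dsRNA, with no overlap. The log2 fold change was -0.94 (SE 0.10, edgeR adjusted p = 2.53e-07), or 52.0% of the B-gal level. The libraries labelled IntS4 had 30.3, 29.9 and 34.9 CPM and were called lower by a small margin (-0.27, SE 0.09, edgeR adjusted p = 0.0223). That call ended without B-gal set A (-0.23, 0.0834), IntS4 set A (-0.24, 0.0785) or IntS4 set B (-0.23, 0.0943), and with only these 2 groups in the fit (-0.27, 0.0685). The libraries labelled IntS6 had 34.2, 32.5 and 34.2 CPM and the Pp2A-29B libraries 35.4, 35.8 and 36.4 CPM. All of them lay below the lowest B-gal library but overlapped the Mock libraries, which had 33.4, 34.1 and 36.9 CPM. The differences of the IntS6 and Pp2A-29B libraries from B-gal were not called (-0.18 and -0.09). Set C labelled IntS4, at 34.9 CPM, also lay within the Mock range. Every B-gal library lay above every Mock library, though the difference between these 2 groups was not called (0.14).

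flw, the beta-type PP1 gene, was raised in 3 of the 4 depletion groups and not with mts dsRNA. It had 16.6, 14.9 and 17.3 CPM in Mock and 14.6, 15.2 and 14.4 CPM with B-gal dsRNA. The libraries labelled IntS4 had 30.8, 27.4 and 26.4 CPM, those labelled IntS6 had 28.7, 32.5 and 26.9 CPM, and those with Pp2A-29B dsRNA had 33.8, 30.3 and 35.6 CPM. Every one of these 9 libraries was above every B-gal and Mock library. The log2 fold changes were 0.94 (SE 0.11, edgeR adjusted p = 1.35e-06), 0.99 (SE 0.11, edgeR adjusted p = 7.08e-07) and 1.17 (SE 0.11, edgeR adjusted p = 2.58e-07), so that the level with Pp2A-29B dsRNA was 226% of that with B-gal dsRNA. With mts dsRNA flw had 17.6, 13.9 and 18.0 CPM, which overlapped both control groups, and a log2 fold change of 0.16 (95% interval -0.08 to 0.40). The direct comparisons bore on this difference: flw was higher with Pp2A-29B than with mts dsRNA by 1.01 (SE 0.11, edgeR adjusted p = 3.67e-05), and lower with mts dsRNA than in the libraries labelled IntS4 (-0.77, SE 0.11, edgeR adjusted p = 1.44e-05) and IntS6 (-0.83, SE 0.11, edgeR adjusted p = 6.62e-06).

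The makeup of PP1 catalytic transcripts differed between the groups. Per kilobase, Pp1-87B gave 81.9 ± 1.31% of the PP1 transcripts with B-gal dsRNA (SD, n = 3), Pp1alpha-96A gave 14.0 ± 1.15% and flw gave 4.06 ± 0.230%. The share of flw was 9.41 ± 0.605% in the libraries labelled IntS4, 10.1 ± 0.358% in those labelled IntS6 and 7.77 ± 0.457% with Pp2A-29B dsRNA. All 9 of these libraries had a larger flw share than any control library. With mts dsRNA it was 4.56 ± 0.703%, while the share of Pp1alpha-96A was 7.27 ± 0.389%, below the lowest B-gal library at 12.7%. The summed PP1 level was 85.0 ± 6.52 CPM per kilobase with B-gal dsRNA, 70.1 ± 3.15 and 67.7 ± 5.98 in the libraries labelled IntS4 and IntS6, 84.9 ± 7.30 with mts dsRNA and 99.9 ± 3.29 with Pp2A-29B dsRNA. The shares are a description with no test, and any reads shared between the near-identical PP1 genes could move them.

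**Figure D3:**
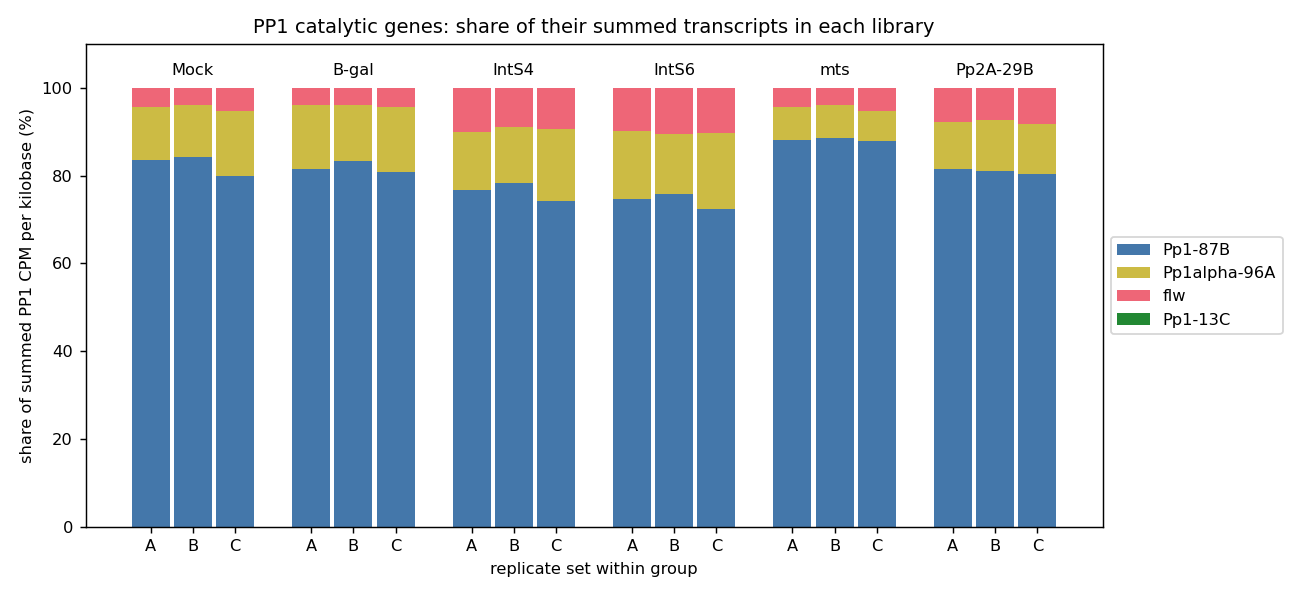
Share of each PP1 catalytic gene in their summed CPM per kilobase (vertical axis, percent) in each library, by group and replicate set. The flw part is widest in the libraries labelled IntS4 and IntS6 (mean 9.41 and 10.1%), and the Pp1alpha-96A part is narrowest with mts dsRNA (mean 7.27%).

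PP1 reaches its targets through partners, and 16 of the 17 listed partner genes could be tested. Of them, 5 were higher and 5 lower in the libraries labelled IntS4, 5 and 3 in those labelled IntS6, 5 and 3 with mts dsRNA and 4 and 4 with Pp2A-29B dsRNA. Over all genes tested the shares called were 47.0, 45.7, 51.4 and 38.8% in the same order. MYPT-75D, a myosin phosphatase targeting subunit, was at 0.680 CPM with B-gal dsRNA and was higher in every depletion group, with log2 fold changes of 3.64, 4.09, 1.90 and 1.92 in the order IntS4, IntS6, mts, Pp2A-29B and edgeR adjusted p-values of 0.000456 or less. Mbs, the other myosin phosphatase targeting subunit, was lower with mts (-0.50, SE 0.08, edgeR adjusted p = 5.93e-05) and Pp2A-29B dsRNA (-0.33, SE 0.08, edgeR adjusted p = 0.00387). In the libraries labelled IntS4 the fall of Mbs by 0.23 (edgeR adjusted p = 0.0294) was no longer called without B-gal set B (-0.18, 0.122), B-gal set C (-0.22, 0.0671) or IntS4 set B (-0.18, 0.127).

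Gbs-70E, which targets PP1 to glycogen, rose from 2.91 CPM to 20.4 and 21.4 CPM in the libraries labelled IntS4 and IntS6 (2.80 and 2.87, SE 0.23 each, edgeR adjusted p = 1.02e-08 and 8.78e-09). With Pp2A-29B dsRNA its rise of 0.81 (edgeR adjusted p = 0.0153) was lost without B-gal set A (0.73, 0.0554), B-gal set C (0.71, 0.0625) or Pp2A-29B set A (0.62, 0.0956). With mts dsRNA its value of 0.56 (edgeR adjusted p = 0.0784) was called without B-gal set B (0.78, 0.0362) or mts set C (0.81, 0.00989). Spn, the spinophilin homologue that brings PP1 to actin, rose in the libraries labelled IntS4 (0.80) and IntS6 (0.74) and fell with mts (-0.76) and Pp2A-29B dsRNA (-0.56), each with an SE of 0.14 and edgeR adjusted p-values from 8.38e-05 to 0.00357.

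Spc105R, the kinetochore scaffold on which PP1 docks, was lower with mts dsRNA by -1.48 (SE 0.12, edgeR adjusted p = 2e-08) and with Pp2A-29B dsRNA by -0.83 (SE 0.12, edgeR adjusted p = 2.03e-05). It was also lower in the libraries labelled IntS6 (-0.49, SE 0.12, edgeR adjusted p = 0.0019), and in those labelled IntS4 (-0.34, edgeR adjusted p = 0.0212). The last of these calls ended without B-gal set C (-0.25, 0.110), IntS4 set A (-0.32, 0.0606) or IntS4 set B (-0.31, 0.0757). Sara, an endosomal adaptor that binds PP1, was called with mts dsRNA alone of the 4 comparisons (0.49, SE 0.09, edgeR adjusted p = 0.000187).

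PpD3 encodes PP5 and was higher with both dsRNAs against PP2A subunits. It had 24.7, 23.7 and 21.1 CPM in Mock, 22.7, 23.1 and 20.3 CPM with B-gal dsRNA, 32.5, 29.5 and 34.1 CPM with mts dsRNA and 25.7, 27.4 and 28.6 CPM with Pp2A-29B dsRNA. Each of the 6 libraries with mts or Pp2A-29B dsRNA was above each control library. The log2 fold change was 0.54 with mts dsRNA (SE 0.10, edgeR adjusted p = 0.000214) and 0.31 with Pp2A-29B dsRNA (SE 0.10, edgeR adjusted p = 0.0221). The second of these was lost without B-gal set C (0.25, 0.0950), Pp2A-29B set B (0.30, 0.0529) or Pp2A-29B set C (0.27, 0.0747). The 2 groups were not called different from each other (-0.23 for Pp2A-29B less mts, 95% interval -0.44 to -0.02, edgeR adjusted p = 0.149). In the libraries labelled IntS4 and IntS6 PpD3 had 20.6, 20.5 and 19.1 CPM and 18.6, 22.5 and 18.0 CPM, and was not called (-0.13 and -0.16).

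Both listed PP5 partners, 2 genes, were called higher with mts and with Pp2A-29B dsRNA, beside 26.6 and 21.0% of all genes called higher, and each of these calls ended without single libraries. Hsp83, the fly Hsp90 whose tail PP5 binds, was at 708 CPM with B-gal dsRNA and was higher with mts (0.34, edgeR adjusted p = 0.0133) and Pp2A-29B dsRNA (0.32, 0.0266), and lower in the libraries labelled IntS4 (-0.38, 0.00715) and IntS6 (-0.34, 0.0167). Leaving out single libraries ended 3 of these calls. The mts call ended without B-gal set C (0.27, 0.0706) or mts set B (0.25, 0.0821). The Pp2A-29B call ended without B-gal set C (0.24, 0.123), Pp2A-29B set A (0.32, 0.0603) or Pp2A-29B set B (0.29, 0.0852). The IntS6 call ended without B-gal set A (-0.28, 0.0715), B-gal set B (-0.32, 0.0501) or IntS6 set B (-0.32, 0.0509). Cdc37, a co-chaperone that hands kinases to Hsp90, was called with mts (0.42, edgeR adjusted p = 0.0100) and Pp2A-29B dsRNA (0.35, 0.0389). Its mts call ended without B-gal set B (0.35, 0.0537) or mts set A (0.35, 0.0556), and its Pp2A-29B call without B-gal set B (0.27, 0.155), B-gal set C (0.29, 0.131) or Pp2A-29B set C (0.23, 0.203).

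CanA-14F, a calcineurin A gene, had no log2 fold change against B-gal larger in size than 0.28. It had 33.9, 39.9 and 34.7 CPM in Mock, 34.6, 44.3 and 40.6 CPM with B-gal dsRNA, 31.6, 32.9 and 34.1 CPM in the libraries labelled IntS4, 37.0, 39.2 and 35.7 CPM in those labelled IntS6, 39.0, 34.0 and 37.7 CPM with mts dsRNA and 48.5, 52.0 and 41.6 CPM with Pp2A-29B dsRNA. The libraries labelled IntS4 all lay below the B-gal libraries but overlapped those of Mock, and the other groups overlapped the B-gal libraries. Only the IntS4 difference was called against B-gal (-0.28, SE 0.11, edgeR adjusted p = 0.0364), and it ended without B-gal set B (-0.20, 0.176), B-gal set C (-0.27, 0.0765), IntS4 set A (-0.25, 0.104) or IntS4 set B (-0.28, 0.0784). With Pp2A-29B dsRNA the log2 fold change of 0.25 (edgeR adjusted p = 0.0689) was called without B-gal set B (0.33, 0.0321) or Pp2A-29B set C (0.33, 0.0244). The neighbouring gene Pp2B-14D, which encodes the same subunit, was at 22.3 CPM with B-gal dsRNA and was called with Pp2A-29B dsRNA (0.32, SE 0.11, edgeR adjusted p = 0.0272). That call ended without B-gal set B (0.33, 0.0574), B-gal set C (0.28, 0.0902) or Pp2A-29B set C (0.27, 0.101).

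All 3 calcineurin partners that could be tested were higher with mts dsRNA and with Pp2A-29B dsRNA, beside 26.6 and 21.0% of all genes called higher. Cam, calmodulin, rose from 213 CPM to 460 CPM with mts dsRNA (1.11, SE 0.16, edgeR adjusted p = 1.95e-05) and to 370 CPM with Pp2A-29B dsRNA (0.79, SE 0.16, edgeR adjusted p = 0.000836). CanB2, the calcium-binding regulatory subunit, rose by 0.54 (SE 0.13, edgeR adjusted p = 0.00165) and 0.44 (SE 0.13, edgeR adjusted p = 0.00978) with the same dsRNAs, the second of which was lost without B-gal set C (0.34, 0.0590). Neither gene was called in the libraries labelled IntS4 or IntS6. sra, a calcineurin regulator that binds the enzyme directly, was higher in all 4 groups, with log2 fold changes of 1.07, 0.88, 0.73 and 0.35 in the order IntS4, IntS6, mts, Pp2A-29B and edgeR adjusted p-values of 8.19e-07, 1.07e-05, 7.95e-05 and 0.0326. The last of these was lost without B-gal set A (0.32, 0.0881), B-gal set B (0.25, 0.166), Pp2A-29B set A (0.35, 0.0734) or Pp2A-29B set C (0.31, 0.101).

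**Figure D4:**
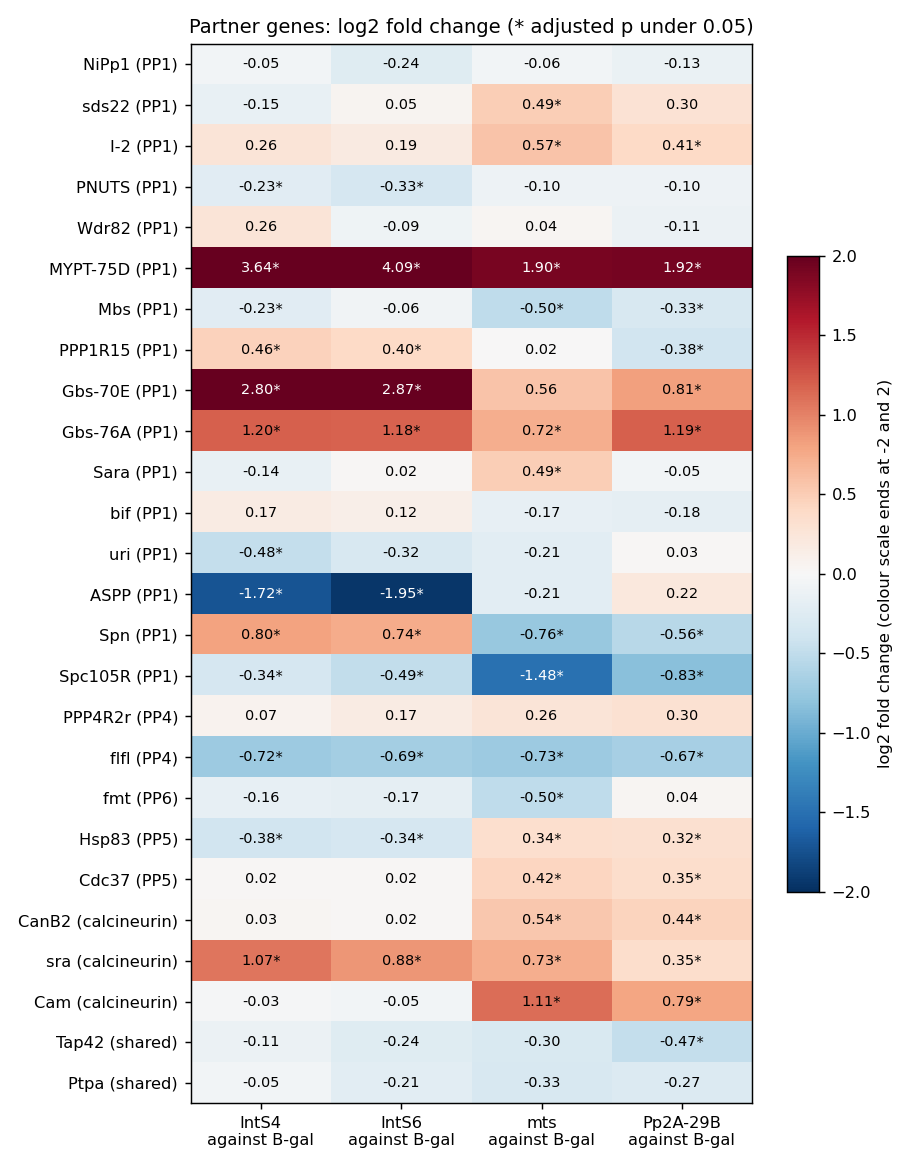
Log2 fold change against B-gal dsRNA (colour and printed value) of the 26 partner genes tested, with the phosphatase each one serves in brackets and a star where the edgeR adjusted p was under 0.05. flfl fell in all 4 columns (-0.67 to -0.73), while Spn and Hsp83 had opposite signs in the libraries labelled IntS4 and IntS6 and in the PP2A dsRNA groups.

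Over all lists, 26 partner genes were tested. In the libraries labelled IntS4, 6 were higher and 7 lower, in those labelled IntS6 6 and 5, with mts dsRNA 10 and 5, with Pp2A-29B dsRNA 9 and 6 (9 in all without B-gal set C), and 0 were called between B-gal and Mock by edgeR or by DESeq2. Over all genes tested the shares called were 47.0, 45.7, 51.4 and 38.8% in the first 4 of these comparisons. Of the 11 other PPP catalytic genes looked up, 3 could be tested. mts itself was lower in the libraries labelled IntS4 and IntS6 by -0.51 in each (SE 0.14, edgeR adjusted p = 0.00519 and 0.00561). CG11597, annotated with the synonym PP4, was at 2.07 CPM with B-gal dsRNA and was not called against it, though without IntS6 set C it was called lower in the libraries labelled IntS6 (-0.88, edgeR adjusted p = 0.0265). The remaining 8 had group means of 0.175 CPM or less, so changes in them were not detectable at this depth.

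In direct comparisons between dsRNA groups, most calls were against mts dsRNA. Between mts dsRNA and the libraries labelled IntS4, 2 of 7 genes were higher and 4 lower with mts dsRNA, beside 52.5% of all genes called (22.5% higher and 30.0% lower). Against the libraries labelled IntS6 the counts were again 2 and 4, beside 50.5% (22.1 and 28.4%). The 4 lower genes were Pp4-19C, PpV, Pp1alpha-96A and flw, and the 2 higher genes were Pp1-87B and PpD3, in both comparisons. Between Pp2A-29B and mts dsRNA, 5 of 7 genes were called, all higher with Pp2A-29B, beside 9.70% of all genes called (4.77% higher and 4.93% lower). With the replicate set as a block, 1462 genes in place of 844 were called in this comparison. The 5 were Pp4-19C (2.25), flw (1.01), Pp1alpha-96A (0.85, SE 0.10, edgeR adjusted p = 3.93e-05), PpV (0.79, SE 0.11, edgeR adjusted p = 0.00041) and CanA-14F (0.36, SE 0.11, edgeR adjusted p = 0.0367). The CanA-14F call ended without any single one of mts set A (0.0687), mts set B (0.133), mts set C (0.0791), Pp2A-29B set A (0.127) or Pp2A-29B set B (0.180). These comparisons share the 3 mts libraries.

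Pp2A-29B dsRNA and the libraries labelled IntS4 differed in 3 of 7 genes, all higher with Pp2A-29B, beside 44.2% of all genes called (18.0% higher and 26.1% lower). The 3 were Pp1-87B (0.59, SE 0.10, edgeR adjusted p = 0.00013), CanA-14F (0.53, SE 0.11, edgeR adjusted p = 0.000474) and PpD3 (0.44, SE 0.10, edgeR adjusted p = 0.00171). The same 3 genes were higher than in the libraries labelled IntS6, beside 42.2% (17.5 and 24.6%), with log2 differences of 0.68, 0.34 and 0.47. The CanA-14F difference from IntS6 ended without Pp2A-29B set B (0.28, 0.0698). The libraries labelled IntS6 and IntS4 were called different in 0 of 7 genes, where edgeR called 6.55% of all genes (2.55% higher and 4.00% lower), 1547 genes had an unadjusted p under 0.05, and DESeq2 also called 0 of the 7.

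**Figure D5:**
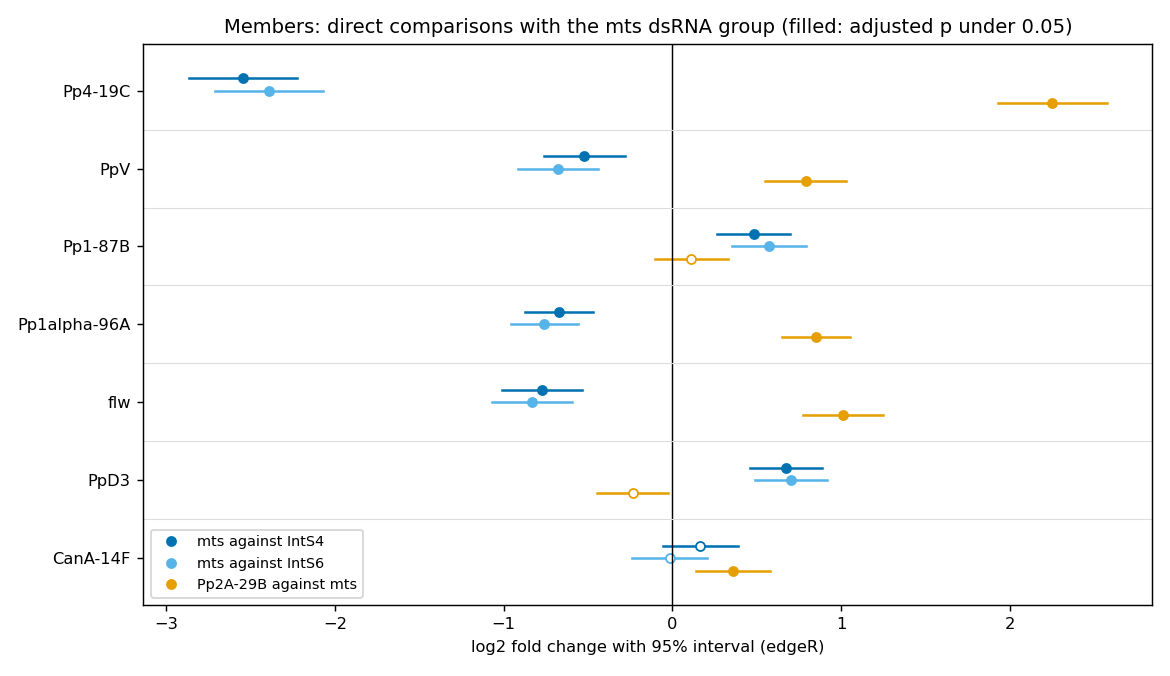
Log2 differences (horizontal axis) with 95% intervals for the 7 tested genes in the 3 direct comparisons that involve mts dsRNA; filled points passed an edgeR adjusted p of 0.05. Pp4-19C, PpV, Pp1alpha-96A and flw are lower with mts dsRNA in all 3, which puts the Pp2A-29B less mts points on the right and the other points on the left.

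Across the 18 libraries the genes fell into patterns that followed the groups. Pearson's r of log2 CPM was 0.89 between Pp4-19C and Pp1alpha-96A, 0.92 between PpV and Pp1alpha-96A and 0.86 between Pp4-19C and PpV. Pp4-19C and PpD3 gave -0.73, and Pp1-87B and PpD3 gave 0.79. These are descriptions over libraries that share their groups and scaling. Among 3318 genes that averaged 4 or more on the log2 CPM scale, CG13252 was the most like Pp4-19C (r = 0.95), followed by apt and simj (0.90 each). mts was the third most like PpV (0.87), after Pp1alpha-96A and CG43693 (0.88). The 18 libraries include those with mts dsRNA, in which mts was itself the target and PpV was called lower. The genes most like flw were nmo (0.89), Sulf1 (0.87) and bin3 (0.87). Those most like Pp1alpha-96A were CG43693 (0.91), Pdk1 (0.89) and lncRNA:CR32218 (0.88), in a search that did not include PpV or Pp4-19C. gish (0.84) was the most like CanA-14F. PIG-B (0.96) was the most like Pp1-87B and Tudor-SN (0.96) the most like PpD3.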

How the data were processed

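Estimated counts were deposited as 1 table of genes by libraries without normalization, and 90.1% of its values were within 0.005 of a whole number. Per the submitters' processing notes, reads were trimmed with Trimmomatic 0.39 and counted with featureCounts, with the builds dm6 and BDGP6; the aligner and strand setting are not given in the sources used here. Estimated counts were rounded to whole numbers. All 18 libraries in 6 groups were fitted in 1 model with edgeR 4.0.16 (R 4.3.3; trimmed-mean factors, count minimum 10 in filterByExpr, quasi-likelihood F test, two-sided, 12 residual degrees of freedom), and p-values were adjusted by Benjamini-Hochberg over the 8704 genes tested, with calls at 0.05. The test was checked on simulated data. CPM per kilobase used merged exon lengths from Ensembl's BDGP6 annotation. Of 17753 entries, 127 had no annotation (0.484% of counts). Depth was 13445318 to 19298644 counts, replicate libraries correlated at 0.978 to 0.990, and no 2 libraries were identical. p-values rest on the spread between libraries within groups, estimated over all 18 libraries, and the main fit did not pair the replicate sets.

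The genes, partner lists and markers were chosen with earlier results of these data known. Of each partner list at most the 6 genes with the smallest adjusted p against B-gal are given with values; CG11597 was added after its annotation was read. The alternatives were DESeq2 1.42.0, other scaling factors, no filter on low counts, removal of the 138 ribosomal RNA entries, fits of 2 groups alone, a replicate block and leaving out each library; those for partner genes were chosen after seeing the data. Same-lettered libraries of different groups deviated together (r over 0.1 in every pair) in 6 of 11 comparisons: B-gal against Mock, mts, IntS4 and IntS6, and mts against IntS4 and Pp2A-29B. For mts against B-gal, however, the highest r between different letters (0.23) exceeded the lowest between same letters (0.13). The same held for mts against IntS4 (0.19 and 0.12). The letters come from the labels, which call the sets biological replicates. No member sequence is shown because none is held in the references used here.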

Additional observations from a re-analysis of the deposited data

How the results depend on the processing

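No called log2 fold change changed sign, while uncalled ones near 0 did, such as that of Pp4-19C in the libraries labelled IntS6 (-0.06 to 0.09). Of the log2 fold changes of members, partners, targets and neighbours under alternatives, 3223 kept their side of the threshold, 112 lost a call and 49 gained one. The number of the 7 genes called stayed at 4 for mts, at 2 for IntS6 and at 0 for Mock under every alternative run. In the libraries labelled IntS4 it was 2 with only the 2 groups in the fit and 2 to 4 without single libraries (2 without IntS4 set A or B). For Pp2A-29B against B-gal it was 4 with the replicate block, which added Pp1-87B (adjusted p = 0.0228) and CanA-14F (0.0411), and 1 to 3 without single libraries (1 without B-gal set C or Pp2A-29B set B). For Pp2A-29B against IntS4 it was 5 with ribosomal RNA removed and 5 with the replicate block. Partner genes called between IntS6 and IntS4 were 1 with the replicate block and 1 with only the 2 groups. Without single libraries, the partner genes called ranged from 9 to 13 for Pp2A-29B against B-gal (15 with all libraries, 9 without B-gal set C) and from 8 to 14 for Pp2A-29B against IntS6 (13 with all libraries, 8 without Pp2A-29B set A). The other alternatives gave 11 to 17 and 10 to 15. The block raised the genes called over the whole table from 844 to 1462 for Pp2A-29B against mts and from 570 to 945 for IntS6 against IntS4, and in these the cause was not tested. It changed no other count of calls among the 7 genes by over 1.5 times. No scaling moved the median log2 fold change of all genes by 0.1 or more. With ribosomal RNA left out of the totals, the B-gal levels rose to 231 CPM per kilobase for Pp1-87B and 28.5 for Pp4-19C. With the length of the longest transcript, the flw share with B-gal dsRNA was 4.45%.

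The main limits are the 3 libraries per group, the share of counts taken by ribosomal RNA, the unknown strand setting, and reads divided among places. Whether reads were divided between the PP1 genes was not tested. Pp4-19C with mts dsRNA rests on 40 to 66 counts per library. Small differences such as those of CanA-14F depended on single libraries.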
